A study of Mus musculus with 12 samples.

Results

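The 40 genes described here drive or mark the cell division cycle, and they were taken as a list of symbols joined to the count table through the authors' own symbol column, out of 37991 genes in that table. They were split by textbook role into 18 genes of the G1/S transition and DNA replication and 22 genes of G2 and mitosis. All 40 were found, and all 40 were among the 18981 genes with enough reads to be tested. The RNA came from bone-marrow-derived dendritic cells (BMDCs) of C57BL/6 mice, which are cultured from marrow, in 12 sequencing libraries of total RNA. There were 4 groups of 3 libraries. The first held wild-type (WT) cells left unstimulated and the second WT cells given curdlan for 3 hours. The third and the fourth held cells whose genotype is labelled Vav1/2/3-/- (KO), unstimulated or given curdlan for 3 hours. Curdlan is a beta-glucan recognised by the receptor Dectin-1, and the Vav proteins are guanine nucleotide exchange factors that act below such receptors. The labels give the curdlan concentration as 200 mg/ml, which is printed as given. They do not say whether libraries of a group came from separate mice or cultures, so p-values measure the spread between these libraries, which may be technical.

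Progress through the cell cycle is carried by waves of transcription. Before S phase, E2F factors drive genes that license origins, unwind DNA and supply nucleotides. Later, the DREAM and MuvB complexes, with B-Myb and FOXM1, govern genes for mitotic entry, spindle assembly and the separation of chromosomes. The cyclin-dependent kinase inhibitor p21 (Cdkn1a) holds such genes down when cells leave the cycle. In BMDC cultures, precursors divide under growth factor and cells leave the cycle as they differentiate, and the level of these transcripts is widely used as a gauge of proliferation. In bulk RNA, fewer cells of a kind and less RNA per cell cannot be told apart.

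The libraries held from 41421718 to 61217861 counted reads, and each group was run in a lane of its own (5 to 8), so lane and group are confounded and cannot be told apart. The transcripts of the targeted genes were not lower in the libraries labelled KO. Vav2 stood at 67.3 ± 3.1 CPM (reads scaled to library size; mean ± SD, n = 3) in unstimulated WT and at 282 ± 6 CPM in unstimulated KO, Vav1 at 133 ± 2.2 and 212 ± 18 CPM, and Vav3 at 26.3 ± 4 and 36.6 ± 4.5 CPM. Counts are summed over whole genes and the labels do not say which exons were removed, so these values do not check the label. The groups are therefore called libraries labelled KO. Of 12 dendritic cell markers none was at 0 in any group. Itgax, which encodes CD11c, averaged 1490 and 788 CPM in unstimulated WT and KO, and H2-Ab1 of MHC class II averaged 734 and 1880 CPM.

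The DNA around the start sites held different motifs in the 2 classes, and 6 stretches are shown because they belong to genes whose values the results turn on. Of the 40 members, 31 had a promoter in the RefSeq table (GRCm38.p6), which gives 250 bases before and 50 after each start. Both strands were searched for the cell cycle homology region (CHR, TTTGAA), the CCAAT box bound by NF-Y, and E2F-like sites (TTTCCCGC, TTTGGCGC, TTTCGCGC or TTTGCCGC). The capitals mark every match, a match on the other strand appears as its reverse complement, and overlapping E2F matches merge into 1 run. Only the 250 bases before the start are printed, 5′ to 3′ on the strand of the gene. Cdc20 and Cdk1 come from the G2/M class, Mcm5 and Mcm6 from the G1/S genes that were lower in the libraries labelled KO. E2f8 and Pcna are among the exceptions. The motifs of these stretches do not stand for those of their groups. The stretches lie at chr4:118437344-118437593 (minus strand, Cdc20), chr10:69352913-69353162 (minus, Cdk1), chr8:75109259-75109508 (plus, Mcm5), chr1:128359706-128359955 (minus, Mcm6), chr7:48881597-48881846 (minus, E2f8) and chr2:132253181-132253430 (minus, Pcna).
Cdc20: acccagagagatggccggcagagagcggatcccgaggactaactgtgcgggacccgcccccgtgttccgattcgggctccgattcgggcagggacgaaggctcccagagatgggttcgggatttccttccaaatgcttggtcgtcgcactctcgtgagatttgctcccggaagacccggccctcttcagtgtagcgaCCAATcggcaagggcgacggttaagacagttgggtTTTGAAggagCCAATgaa
Cdk1: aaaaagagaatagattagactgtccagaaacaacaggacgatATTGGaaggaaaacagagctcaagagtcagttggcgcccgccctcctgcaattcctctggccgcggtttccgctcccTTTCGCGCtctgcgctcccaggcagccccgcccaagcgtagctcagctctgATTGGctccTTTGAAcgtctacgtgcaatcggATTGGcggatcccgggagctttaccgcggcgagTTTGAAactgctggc
Mcm5: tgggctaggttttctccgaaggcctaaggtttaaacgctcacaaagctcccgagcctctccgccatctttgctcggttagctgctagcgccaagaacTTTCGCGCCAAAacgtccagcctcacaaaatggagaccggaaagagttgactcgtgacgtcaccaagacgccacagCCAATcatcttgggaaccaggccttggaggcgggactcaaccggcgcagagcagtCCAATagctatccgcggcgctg
Mcm6: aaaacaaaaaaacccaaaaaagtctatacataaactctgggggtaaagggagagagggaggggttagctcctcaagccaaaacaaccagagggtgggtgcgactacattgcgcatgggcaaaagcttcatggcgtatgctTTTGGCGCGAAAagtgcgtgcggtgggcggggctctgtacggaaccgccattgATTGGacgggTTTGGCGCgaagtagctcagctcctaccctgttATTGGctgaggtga
E2f8: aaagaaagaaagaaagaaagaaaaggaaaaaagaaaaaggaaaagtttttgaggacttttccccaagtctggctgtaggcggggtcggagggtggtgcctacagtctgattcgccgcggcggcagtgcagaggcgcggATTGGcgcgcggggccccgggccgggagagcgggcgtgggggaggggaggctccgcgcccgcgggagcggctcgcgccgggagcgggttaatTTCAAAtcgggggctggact
Pcna: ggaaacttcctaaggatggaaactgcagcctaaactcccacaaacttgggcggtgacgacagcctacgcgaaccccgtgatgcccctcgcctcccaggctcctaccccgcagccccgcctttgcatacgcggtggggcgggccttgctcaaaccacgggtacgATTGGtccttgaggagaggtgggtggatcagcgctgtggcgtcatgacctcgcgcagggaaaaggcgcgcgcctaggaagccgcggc

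In Cdc20 the CHR began at position -18 from the start, with CCAAT boxes at -53 and -8. Cdk1 held a CHR at -71 and at -15, 3 CCAAT boxes, and the only E2F-like match among the G2/M promoters, at -131. The Mcm5 stretch held overlapping E2F-like matches at -153 and -149, and Mcm6 held 3 such matches, at -110, -106 and -47. E2f8 carried a CHR at -20 on the other strand and a CCAAT box at -112, and the Pcna stretch held a CCAAT box at -87 alone. Over whole 300-base windows, a CHR lay in 11 of 16 G2/M promoters (68.8%) and in 2 of 15 G1/S promoters (13.3%), against 17.9% of all 32851 windows. An E2F-like site lay in 7 of 15 G1/S promoters (46.7%) and 1 of 16 G2/M promoters (6.25%), against 2.26% of all windows. CCAAT boxes were found in 14 G2/M promoters (87.5%) and 10 G1/S promoters (66.7%), against 37.4% of all windows, and a CHR together with a CCAAT box in 68.8%, 13.3% and 6.95%. The 2 G1/S promoters with a CHR were those of Mcm2 and E2f8. E2F-like sites did not separate the lower G1/S genes from the exceptions. Mcm2, Ccne1, Rrm1, Rrm2, Tyms and E2f1 were lower in unstimulated KO and had none, while the Cdt1 window held a match at position 32. These matches describe letters in the windows and are not shown to be bound sites.

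Across the 4 groups, the cell cycle transcripts were highest in unstimulated WT and lowest in curdlan-treated cells labelled KO. By group mean, unstimulated WT was the highest group for 34 of 40 members and KO with curdlan the lowest for 33. The order of groups was not counted over all tested genes. The mean log2 CPM of the G1/S class, set relative to unstimulated WT, was -0.15 ± 0.04 (SD, n = 3) in WT with curdlan, -0.70 ± 0.10 in unstimulated KO and -0.85 ± 0.04 in KO with curdlan. For the G2/M class the same means were -0.24 ± 0.05, -1.04 ± 0.15 and -1.44 ± 0.07. The members together took 0.289% to 0.32% of all reads in unstimulated WT libraries, 0.242% to 0.261% in WT with curdlan, 0.154% to 0.177% in unstimulated KO and 0.119% to 0.122% in KO with curdlan. On a per-length scale (CPM per kilobase of exon), unstimulated WT levels ran from 1.4 for Cdc25c, a phosphatase that activates CDK1, to 78.5 for Pcna, the sliding clamp of DNA polymerases, with Mki67 at 45.1 and Rrm2 at 32.1.

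**Figure D1:**
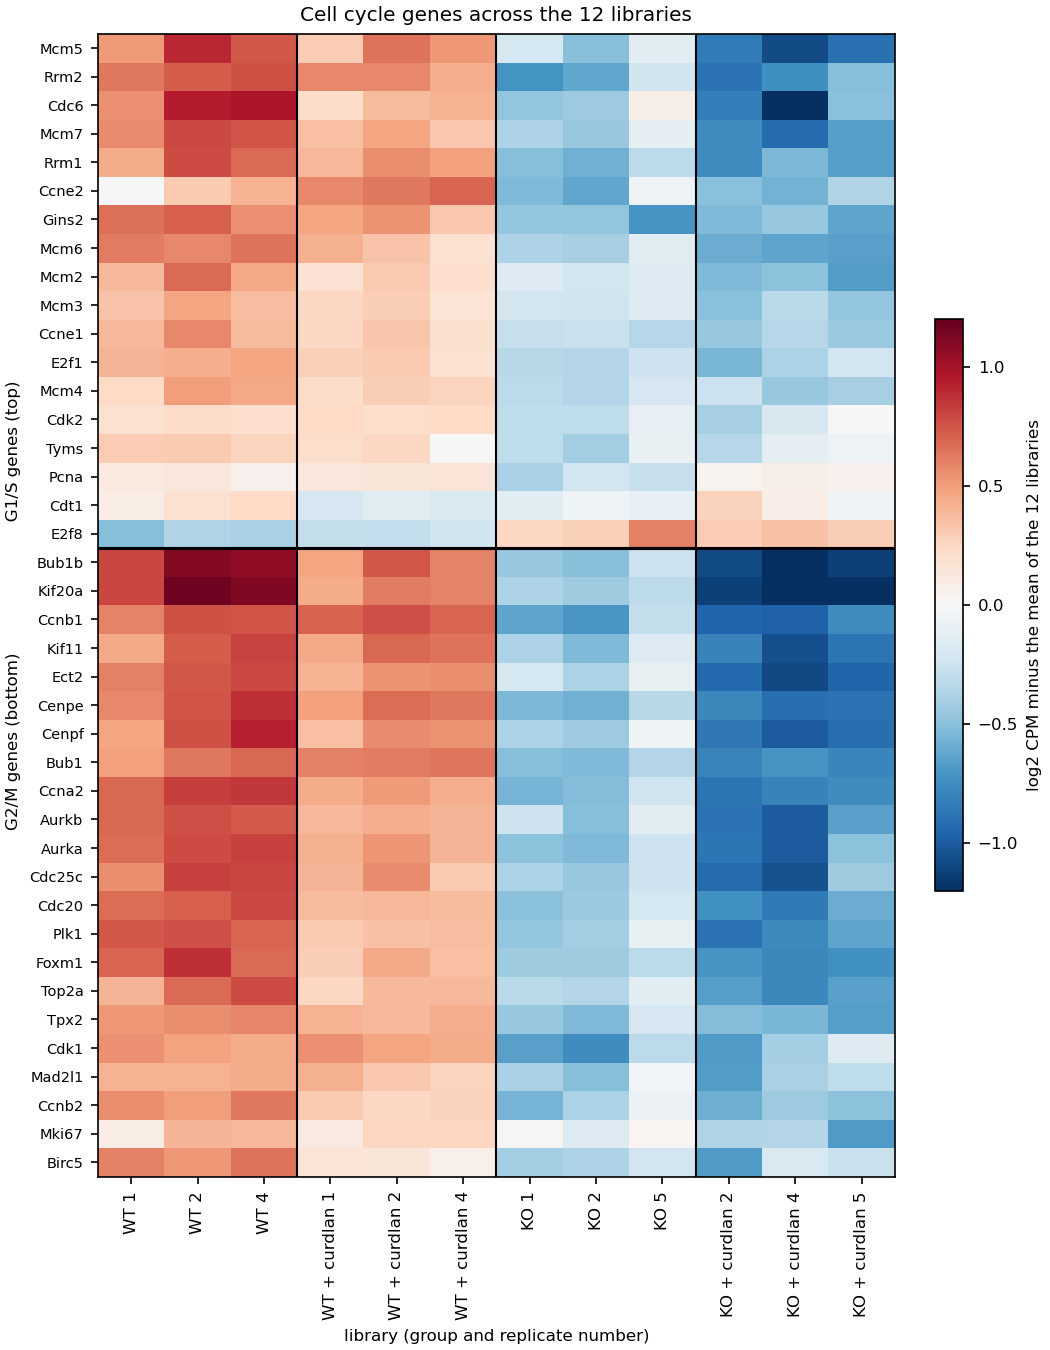
Each row is a gene (18 G1/S genes above the line, 22 G2/M genes below) and each column a library, with colour giving log2 CPM minus the mean of the 12 libraries. WT libraries lie above the mean for nearly every gene and the libraries labelled KO below it, while E2f8 runs the other way and Pcna and Cdt1 differ little.

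The comparison of genotypes without stimulus asked how cells labelled Vav1/2/3-/- differ before curdlan is given. Of the 40 members, 39 were lower in the libraries labelled KO and 1, E2f8, was higher (edgeR quasi-likelihood test, Benjamini-Hochberg adjusted p under 0.05). Over all tested genes, 23.3% were lower and 21.1% higher by the same rule. All 22 G2/M genes and 17 of 18 G1/S genes fell in this comparison. The median log2 fold change was -1.05 for G2/M genes and -0.72 for G1/S genes, against -0.01 for all tested genes. The median G2/M gene stood at 48.2% of its WT level and the median G1/S gene at 60.6%, and 15 G2/M genes and 6 G1/S genes were at least 2-fold lower. No member had overlapping groups. Neither the overlap nor the 2-fold falls were counted over all tested genes.

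With curdlan present, 37 members were lower and 2 were higher in the libraries labelled KO, E2f8 and Cdt1, while Pcna did not pass. Among all tested genes 26.8% were lower and 24.7% higher. The 22 G2/M genes were all lower again, with a median log2 fold change of -1.22, and 15 of 18 G1/S genes were lower, with a median of -0.73 over the class and 0.01 over all genes. The median G2/M gene stood at 42.8% of its WT level and the median G1/S gene at 60.2%. The authors' deposited table of this comparison lists 37 members lower and 1 higher at its own adjusted p. Both genotype comparisons are between libraries that differ in lane, and they do not share libraries with each other.

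**Figure D2:**
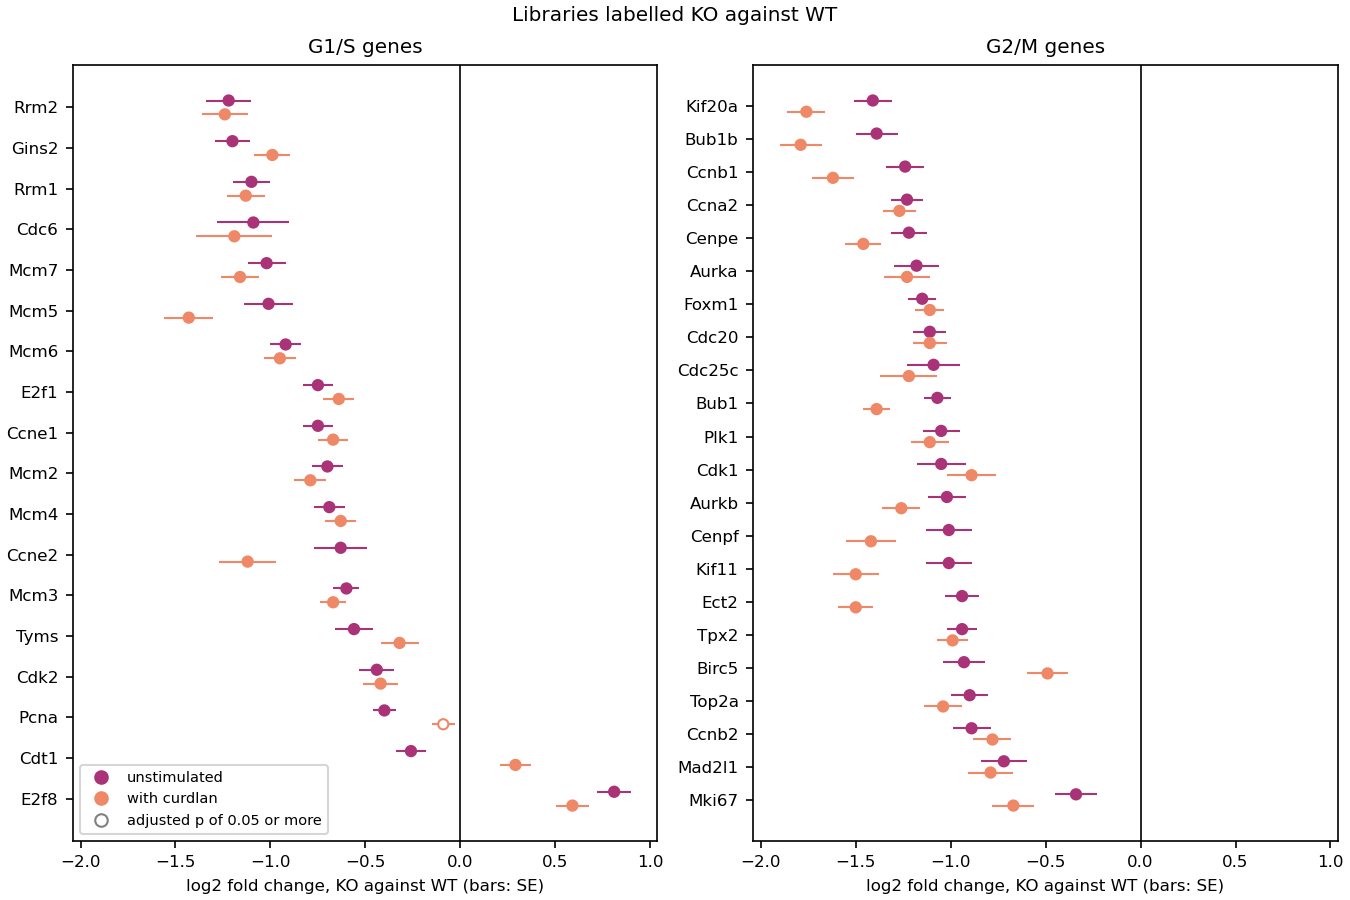
Points give the log2 fold change of libraries labelled KO against WT for each gene, without stimulus (purple) and with curdlan (orange), bars the standard error, and open points an adjusted p of 0.05 or more. All 22 G2/M genes lie left of 0 in both states, and E2f8 alone lies right of 0 in both.

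The replicative helicase MCM2-7, loaded on origins in G1, was lower as a whole in the libraries labelled KO. Mcm5 stood at 83.4, 110 and 98.3 CPM in the unstimulated WT libraries 1, 2 and 4, at 72.5, 92.3 and 84 CPM in the WT curdlan libraries of the same numbers, at 50.7, 41.2 and 53.3 CPM in the unstimulated KO libraries 1, 2 and 5, and at 32.8, 27.9 and 31.5 CPM in the KO curdlan libraries 2, 4 and 5. Below, values are listed in this order of groups and libraries. The WT libraries were all higher than the KO libraries, and the 3 KO curdlan libraries were the lowest of all. The log2 fold change of Mcm5, KO against WT, was -1.01 ± 0.13 (SE) without stimulus (edgeR adjusted p = 4.71e-05) and -1.43 ± 0.13 with curdlan (adjusted p = 3.5e-06). Mcm2 was counted at 50, 61.2 and 52.7 CPM in unstimulated WT, 43, 47.3 and 43.9 CPM in WT with curdlan, 34.2, 32.7 and 34.2 CPM in unstimulated KO and 26.3, 27.2 and 23.9 CPM in KO with curdlan. The 2 genotypes did not overlap, and its log2 fold changes were -0.70 ± 0.083 and -0.79 ± 0.084. Mcm7 was counted at 66.8, 78.4 and 76.5 CPM in unstimulated WT, 58.1, 62.7 and 56.6 CPM in WT with curdlan, 34.9, 32.9 and 41.5 CPM in unstimulated KO and 26.9, 23.8 and 28.6 CPM in KO with curdlan. Mcm6 was counted at 92.7, 89.7 and 94.3 CPM in unstimulated WT, 80.6, 76.1 and 68 CPM in WT with curdlan, 46.3, 45.6 and 54.4 CPM in unstimulated KO and 39.6, 38.6 and 38.1 CPM in KO with curdlan. For both genes all 6 KO libraries lay below all 6 WT libraries. Of the exon bases of Mcm7, 12.6% are shared with other genes, mainly on the opposite strand, and the library kit does not mark strand. The 6 Mcm genes had log2 fold changes from -1.02 (Mcm7) to -0.60 (Mcm3) without stimulus and from -1.43 (Mcm5) to -0.63 (Mcm4) with curdlan. Gins2, a subunit of the GINS complex that joins the active helicase, was counted at 20.8, 21.5 and 19.2 CPM in unstimulated WT, 18.2, 19.1 and 16.4 CPM in WT with curdlan, 9.48, 9.39 and 7.98 CPM in unstimulated KO and 9.05, 9.54 and 8.44 CPM in KO with curdlan. Its log2 fold change was -1.2 ± 0.093 without stimulus and -0.99 ± 0.094 with curdlan, but 67.3% of its exon bases overlap Gse1 on the opposite strand, so reads of the 2 genes may be mixed. Gse1 itself had a mean of 39.5 CPM in unstimulated WT and 55.2 CPM in unstimulated KO (edgeR adjusted p = 0.061). With curdlan Gse1 was lower in KO, as Gins2 was, at 52.2 CPM in WT and 34.4 CPM in KO (log2 fold change -0.60, edgeR adjusted p = 0.0224).

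The licensing factors that load this helicase differed from each other. Cdc6 was counted at 9.59, 12.6 and 12.9 CPM in unstimulated WT, 7.63, 8.5 and 8.77 CPM in WT with curdlan, 4.71, 4.84 and 6.87 CPM in unstimulated KO and 3.7, 2.6 and 4.62 CPM in KO with curdlan. It was lower in every KO library than in any WT library, with log2 fold changes of -1.09 ± 0.19 (edgeR adjusted p = 0.000566) without stimulus and -1.19 ± 0.2 (adjusted p = 0.000397) with curdlan. Cdt1 was counted at 29, 31 and 32.2 CPM in unstimulated WT, 23.7, 24.6 and 24.1 CPM in WT with curdlan, 25, 26.3 and 25.4 CPM in unstimulated KO and 33.1, 28.8 and 26.3 CPM in KO with curdlan. Without stimulus all KO libraries lay below the WT libraries (log2 fold change -0.26 ± 0.081, adjusted p = 0.0191), and with curdlan all KO libraries lay above them (0.29 ± 0.082, adjusted p = 0.0114). Neither Cdt1 call held in every alternative: the first lost its call when unstimulated WT library 2 or 4, or unstimulated KO library 1 or 5, was left out, and the second when KO curdlan library 2 was left out or when libraries were scaled by their size alone.

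Pcna and the genes of nucleotide supply also split. Rrm2, the regulated subunit of ribonucleotide reductase, was counted at 84.5, 90.1 and 92.4 CPM in unstimulated WT, 81.5, 81.5 and 73.8 CPM in WT with curdlan, 33.2, 35.3 and 46.2 CPM in unstimulated KO and 29.5, 32.7 and 38.3 CPM in KO with curdlan. Rrm1, its large subunit, was counted at 110, 138 and 129 CPM in unstimulated WT, 106, 119 and 113 CPM in WT with curdlan, 56.5, 54.1 and 64.7 CPM in unstimulated KO and 47.9, 55.3 and 50.8 CPM in KO with curdlan. Both were lower in all KO libraries, with log2 fold changes of -1.22 ± 0.12 and -1.10 ± 0.099 without stimulus and -1.24 ± 0.12 and -1.13 ± 0.099 with curdlan. Tyms, the thymidylate synthase, had -0.56 ± 0.1 and -0.32 ± 0.1, and its second call was lost when WT curdlan library 1 or 2, or KO curdlan library 2, was left out. Pcna was counted at 191, 192 and 182 CPM in unstimulated WT, 193, 194 and 195 CPM in WT with curdlan, 134, 150 and 144 CPM in unstimulated KO and 181, 185 and 182 CPM in KO with curdlan. Its unstimulated KO libraries were the 3 lowest, while its KO curdlan libraries overlapped unstimulated WT and lay just below WT with curdlan. The log2 fold change was -0.40 ± 0.06 without stimulus (edgeR adjusted p = 0.000184) and -0.09 ± 0.06 with curdlan (adjusted p = 0.244). The pseudogene Pcna-ps2, which may take reads of Pcna, had means of 37.4, 37.8, 27.9 and 35.5 CPM in the 4 groups.

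Among the genes that control entry into S phase, the cyclins E, their kinase Cdk2 and the activator E2f1 were lower, and the repressor E2f8 was higher. Ccne1, cyclin E1, was counted at 17.7, 20.1 and 17.6 CPM in unstimulated WT, 16.1, 17 and 15.4 CPM in WT with curdlan, 11.2, 11.2 and 10.7 CPM in unstimulated KO and 9.86, 10.6 and 9.92 CPM in KO with curdlan. All KO libraries were below all WT libraries, by -0.75 ± 0.077 without stimulus and -0.67 ± 0.078 with curdlan on the log2 scale. Ccne2, cyclin E2, had -0.63 ± 0.14 and -1.12 ± 0.15, with 17.4% of its exon bases shared with Ints8. Cdk2 had -0.44 ± 0.091 and -0.42 ± 0.091, and E2f1 -0.75 ± 0.081 and -0.64 ± 0.081. E2f8, an atypical E2F that represses E2F targets, was counted at 28.6, 31.9 and 31.2 CPM in unstimulated WT, 33.6, 33.3 and 34.7 CPM in WT with curdlan, 48.6, 49.9 and 62.2 CPM in unstimulated KO and 50.7, 52.3 and 50.3 CPM in KO with curdlan. Every KO library exceeded every WT library, and unstimulated KO library 5 was the highest. The log2 fold change was 0.81 ± 0.088 without stimulus (edgeR adjusted p = 1.5e-05) and 0.59 ± 0.088 with curdlan (adjusted p = 0.000154). Its relative E2f7 was lower, at -0.73 (adjusted p = 0.000733) and -0.75 (adjusted p = 0.000599). Gm2788, which overlaps 11.2% of the exon bases of E2f8 on the opposite strand, averaged under 0.5 CPM in each group.

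**Figure D3:**
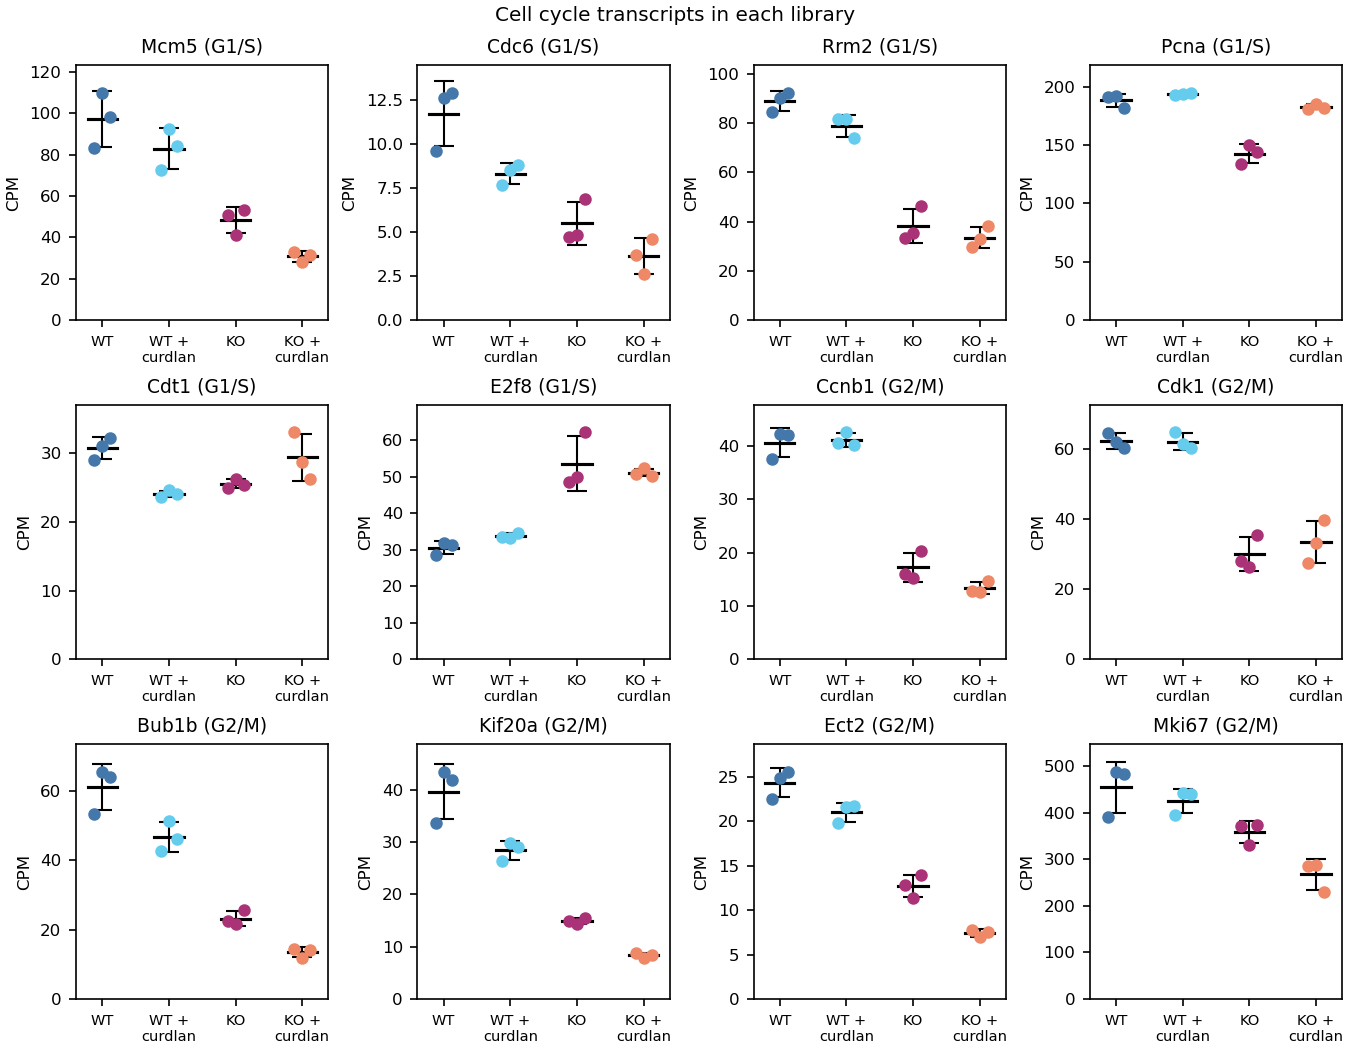
Points are CPM in single libraries for 12 members by group, horizontal lines means and bars SD (n = 3 libraries), on axes from 0. Most genes step down from WT to KO and are lowest in KO with curdlan, as Kif20a does from 33.6 to 43.5 CPM in unstimulated WT to 7.8 to 8.86 CPM, while E2f8 steps up, and Cdt1 in KO with curdlan (26.3 to 33.1 CPM) lies above WT with curdlan (23.7 to 24.6 CPM).

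The cyclins and kinase that start mitosis were all lower in the libraries labelled KO. Ccnb1, cyclin B1, was counted at 37.6, 42.3 and 42 CPM in unstimulated WT, 40.5, 42.6 and 40.2 CPM in WT with curdlan, 16, 15.3 and 20.4 CPM in unstimulated KO and 12.8, 12.6 and 14.7 CPM in KO with curdlan. The highest KO library stood at 20.4 CPM and the lowest WT library at 37.6 CPM, and the log2 fold change was -1.24 ± 0.1 (edgeR adjusted p = 2.06e-06) without stimulus and -1.62 ± 0.11 (adjusted p = 3.42e-07) with curdlan. Ccna2, cyclin A2, was counted at 64.9, 71.6 and 72.9 CPM in unstimulated WT, 54.8, 57.4 and 54.6 CPM in WT with curdlan, 27.3, 28 and 34.1 CPM in unstimulated KO and 22, 23.1 and 24 CPM in KO with curdlan. Cdk1, the mitotic kinase that both cyclins activate, was counted at 64.6, 61.9 and 60.2 CPM in unstimulated WT, 64.8, 61.3 and 60.2 CPM in WT with curdlan, 28.1, 26.3 and 35.4 CPM in unstimulated KO and 27.5, 33.3 and 39.6 CPM in KO with curdlan. Both were lower in every KO library, Ccna2 by -1.23 ± 0.086 and -1.27 ± 0.087 and Cdk1 by -1.05 ± 0.13 and -0.89 ± 0.13. Of the exon bases of Ccna2, 12.5% overlap Exosc9 on the opposite strand, whose own change was -0.15 without stimulus (adjusted p = 0.125). Ccnb2 and Cdc25c had -0.89 and -1.09 without stimulus and -0.78 and -1.22 with curdlan.

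The proliferation markers moved by unequal amounts. Mki67, which encodes the antigen Ki-67 that coats mitotic chromosomes, was counted at 391, 488 and 483 CPM in unstimulated WT, 395, 441 and 440 CPM in WT with curdlan, 372, 330 and 373 CPM in unstimulated KO and 286, 288 and 229 CPM in KO with curdlan. Top2a, the topoisomerase that untangles sister chromatids, was counted at 223, 270 and 289 CPM in unstimulated WT, 199, 220 and 221 CPM in WT with curdlan, 135, 132 and 154 CPM in unstimulated KO and 106, 98.2 and 107 CPM in KO with curdlan. In both genes all KO libraries lay under all WT libraries of the same state. Top2a had log2 fold changes of -0.90 ± 0.098 and -1.04 ± 0.099. Mki67 had -0.34 ± 0.11 without stimulus (edgeR adjusted p = 0.0233), the smallest change of any G2/M gene there, and -0.67 ± 0.11 with curdlan (adjusted p = 0.000314). Its call without stimulus was lost when unstimulated WT library 2 or 4 or unstimulated KO library 2 was left out.

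The checkpoint and anaphase genes were lower in both states, and Bub1b had the largest difference of any member with curdlan. Bub1b, which encodes the checkpoint protein BubR1 (chr2:118598211-118641591, plus strand), was counted at 53.3, 65.5 and 64 CPM in unstimulated WT, 42.5, 51.2 and 46.1 CPM in WT with curdlan, 22.4, 21.5 and 25.6 CPM in unstimulated KO and 14.5, 11.9 and 14.1 CPM in KO with curdlan. The lowest WT library held more than the highest KO library by a wide margin, and KO curdlan libraries were lower than unstimulated KO libraries. Its log2 fold change was -1.39 ± 0.11 without stimulus (edgeR adjusted p = 1.13e-06) and -1.79 ± 0.11 with curdlan (adjusted p = 2.48e-07). Cdc20, the activator of the anaphase-promoting complex, was counted at 37.2, 38.6 and 40.6 CPM in unstimulated WT, 30.5, 30.9 and 30.4 CPM in WT with curdlan, 16.6, 17.2 and 20.2 CPM in unstimulated KO and 14.1, 13 and 15.5 CPM in KO with curdlan. It had -1.11 ± 0.087 and -1.11 ± 0.088, the checkpoint kinase Bub1 had -1.07 ± 0.072 and -1.39 ± 0.073, and Mad2l1 had -0.72 ± 0.12 and -0.79 ± 0.12. The CHR of the Bub1b window begins at position 40, inside the transcript.

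The kinases of spindle assembly and the factor FOXM1 were lower in both states. Plk1, polo-like kinase 1, was counted at 27.9, 28.4 and 27.1 CPM in unstimulated WT, 20.7, 21.2 and 21.6 CPM in WT with curdlan, 12, 12.5 and 15.6 CPM in unstimulated KO and 9.01, 9.76 and 10.7 CPM in KO with curdlan. Foxm1, which encodes a transcription factor of G2/M genes, was counted at 32.4, 36.6 and 31.9 CPM in unstimulated WT, 24.5, 27.2 and 25.5 CPM in WT with curdlan, 14.8, 14.8 and 16 CPM in unstimulated KO and 12.2, 11.6 and 12 CPM in KO with curdlan. All KO libraries of both genes lay under all WT libraries, by -1.05 ± 0.098 and -1.11 ± 0.1 for Plk1 and -1.15 ± 0.075 and -1.11 ± 0.076 for Foxm1. Aurka had -1.18 and -1.23, and Aurkb -1.02 and -1.26. Birc5, survivin, which acts with Aurora B in the passenger complex, was counted at 49.4, 46.5 and 51 CPM in unstimulated WT, 36.2, 35.8 and 33.8 CPM in WT with curdlan, 24.4, 25 and 27.7 CPM in unstimulated KO and 20.2, 28.6 and 26.8 CPM in KO with curdlan. Its difference was -0.93 ± 0.11 without stimulus and -0.49 ± 0.11 with curdlan.

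The motors, the kinetochore proteins and the exchange factor Ect2 showed larger differences with curdlan than without as point values. The change between states passed its own test for Ect2 and for none of the motors or kinetochore proteins. Kif20a, a kinesin of cytokinesis, was counted at 33.6, 43.5 and 41.9 CPM in unstimulated WT, 26.3, 29.8 and 29.1 CPM in WT with curdlan, 14.9, 14.3 and 15.5 CPM in unstimulated KO and 8.86, 7.8 and 8.38 CPM in KO with curdlan. Kif11, the kinesin Eg5 that separates spindle poles, was counted at 54.4, 65.9 and 69.9 CPM in unstimulated WT, 54.5, 64.1 and 62.6 CPM in WT with curdlan, 30.8, 27.5 and 35.8 CPM in unstimulated KO and 22.9, 19.2 and 21.7 CPM in KO with curdlan. Ect2, the exchange factor that places the cleavage furrow, was counted at 22.5, 24.9 and 25.6 CPM in unstimulated WT, 19.8, 21.6 and 21.7 CPM in WT with curdlan, 12.8, 11.4 and 13.9 CPM in unstimulated KO and 7.74, 6.94 and 7.58 CPM in KO with curdlan. In each of these genes the 3 KO curdlan libraries were the 3 lowest of the 12. Kif20a had log2 fold changes of -1.41 ± 0.099 and -1.76 ± 0.1, Kif11 -1.01 ± 0.12 and -1.50 ± 0.12, and Ect2 -0.94 ± 0.089 and -1.50 ± 0.093. The exons of Kif20a share 29.3% of their bases with Cdc23 on the opposite strand, which itself had -0.60 and -0.96. Cenpf, a protein of the outer kinetochore, was counted at 33.1, 40.6 and 45.6 CPM in unstimulated WT, 30.7, 35.5 and 34.7 CPM in WT with curdlan, 18.3, 17.7 and 23 CPM in unstimulated KO and 13.1, 11.9 and 12.7 CPM in KO with curdlan. It had -1.01 ± 0.12 and -1.42 ± 0.13, Cenpe -1.22 and -1.46, and the spindle assembly factor Tpx2 -0.94 and -0.99.

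Markers of other cell types moved with genotype to unequal extents in the same libraries. Among all tested genes, 21.1% were higher and 23.3% lower in KO without stimulus, and 24.7% and 26.8% with curdlan. The summed level of 11 macrophage markers ran from 1890 to 2110 CPM over the WT groups and from 5580 to 7170 CPM over the KO groups, and 9 of 11 were higher in KO in each state, such as C1qa at 62.1 and 1190 CPM without stimulus. The 11 neutrophil markers summed to 4290 to 6270 CPM in WT and 6450 to 11300 CPM in KO, with 11 of 11 higher in each state, and the 8 mast cell and basophil markers to 35.7 to 52.6 CPM and 171 to 339 CPM, with 8 of 8 higher. The 11 progenitor markers summed to 134 to 202 CPM in WT and 209 to 456 CPM in KO. Of these, 3 were higher (27.3%) and 1 lower (9.09%) without stimulus, so the share higher was near that of all genes. The 10 B cell markers summed to 83.3 to 97.1 CPM in WT and 33.6 to 53.4 CPM in KO, with 9 of 10 lower without stimulus, and Ms4a1 was at 0 in unstimulated KO. Of the 12 dendritic cell markers, 5 were higher (41.7%) and 4 lower (33.3%) in each state. T cell markers summed to at most 7.11 CPM and erythroid markers to at most 3.12 CPM. The part of these differences in the cell cycle values was not tested.

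Cell cycle transcripts were lower by small amounts in WT cells given curdlan for 3 hours, and how many passed the test depended on the fit. The 2 WT groups also differ in lane (5 and 7), which cannot be told apart from curdlan. Of the 40 members, 12 fell (4 G1/S and 8 G2/M) and 0 rose, against 8.4% lower and 11.4% higher among all tested genes. At an unadjusted p under 0.05 there were 23 members, and 33.6% of all genes. The median log2 fold change was -0.29 for G2/M genes, -0.18 for G1/S genes and -0.03 for all tested genes. For 24 members all 3 curdlan libraries lay below all 3 unstimulated ones, for 3 they lay above, and for 13 the groups overlapped. These counts were not made over all tested genes. With the replicate numbers as a block within genotype, 25 members fell and 1, Ccne2, rose (0.40, adjusted p = 0.00287), against 19.8% lower and 18.6% higher among all tested genes in that fit. Leaving out 1 library moved the 12 to 4 (unstimulated WT 4), 5 (WT curdlan 4), 7 (unstimulated WT 2) and 7 (WT curdlan 1).

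Among the members that passed in WT, the largest falls were in mitotic genes. Those in licensing and helicase genes overlapped the falls of other mitotic genes, such as Ccna2 (-0.33) and Aurkb (-0.32). Cdc6 had the largest point fall (-0.49, edgeR adjusted p = 0.0835) and did not pass, though it did with the replicate block (adjusted p = 0.000367). Kif20a fell by 0.48 ± 0.097 on the log2 scale (edgeR adjusted p = 0.00414), Birc5 by 0.47 ± 0.11 (adjusted p = 0.00855), and Foxm1 by 0.39 ± 0.073 (adjusted p = 0.00299). For each, the 3 curdlan libraries lay below the 3 unstimulated libraries. Cdt1 fell by 0.35 ± 0.081, Mcm7 by 0.32 ± 0.099, Mcm6 by 0.30 ± 0.081 and Mcm2 by 0.29 ± 0.082. Plk1 and Bub1b both had -0.39 and Cdc20 -0.34. With each library left out in turn, the calls of Kif20a, Birc5, Foxm1 and Plk1 held each time, and those of the other 8 were each lost at least 1 time. Cdk1 (0.00, adjusted p = 0.994), Ccnb1 (0.02, adjusted p = 0.936), Bub1 (0.01, adjusted p = 0.92) and Pcna (0.04, adjusted p = 0.671) did not pass. Mki67 had -0.09, Top2a -0.29, Mcm5 -0.23 and Ccne1 -0.19, each short of the threshold.

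In the libraries labelled KO, genes of both classes were also lower with curdlan, and here too the 2 groups differ in lane (6 and 8). Here 22 members fell (6 G1/S and 16 G2/M) and 1, Pcna, rose, against 14.6% lower and 14% higher among all tested genes. The median log2 fold change was -0.38 for G2/M genes, -0.11 for G1/S genes and 0 for all tested genes. Kif20a fell by 0.84 ± 0.1 on the log2 scale (edgeR adjusted p = 0.000123), Bub1b by 0.78 ± 0.11, Ect2 by 0.77 ± 0.093 and Cenpf by 0.64 ± 0.13. Mcm5 fell by 0.66 ± 0.13 (adjusted p = 0.00262), Cdc6 by 0.59 ± 0.2 (adjusted p = 0.0475), Mcm7 by 0.46 ± 0.1 and Mcm2 by 0.39 ± 0.083. A fit of the 2 KO groups alone gave 15 members lower, 11 of them G2/M, and 1 higher, against 8.69% lower and 8.96% higher among all genes tested in it; the calls of Mcm3, Cdc6, Ccnb1, Cdc20, Plk1, Aurka and Bub1 were lost there. The calls of Cdc6, Ccnb1, Aurka and Mcm3 were also lost without some single libraries of either state, and that of Mki67 without unstimulated KO 1. Pcna rose by 0.35 ± 0.06 (adjusted p = 0.00109). Its 3 curdlan libraries lay above the 3 unstimulated ones, but the call was lost when libraries were scaled by their size alone (0.15, adjusted p = 0.0704). The motors Kif20a and Kif11 and the exchange factor Ect2 had every curdlan library below every unstimulated one.

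**Figure D4:**
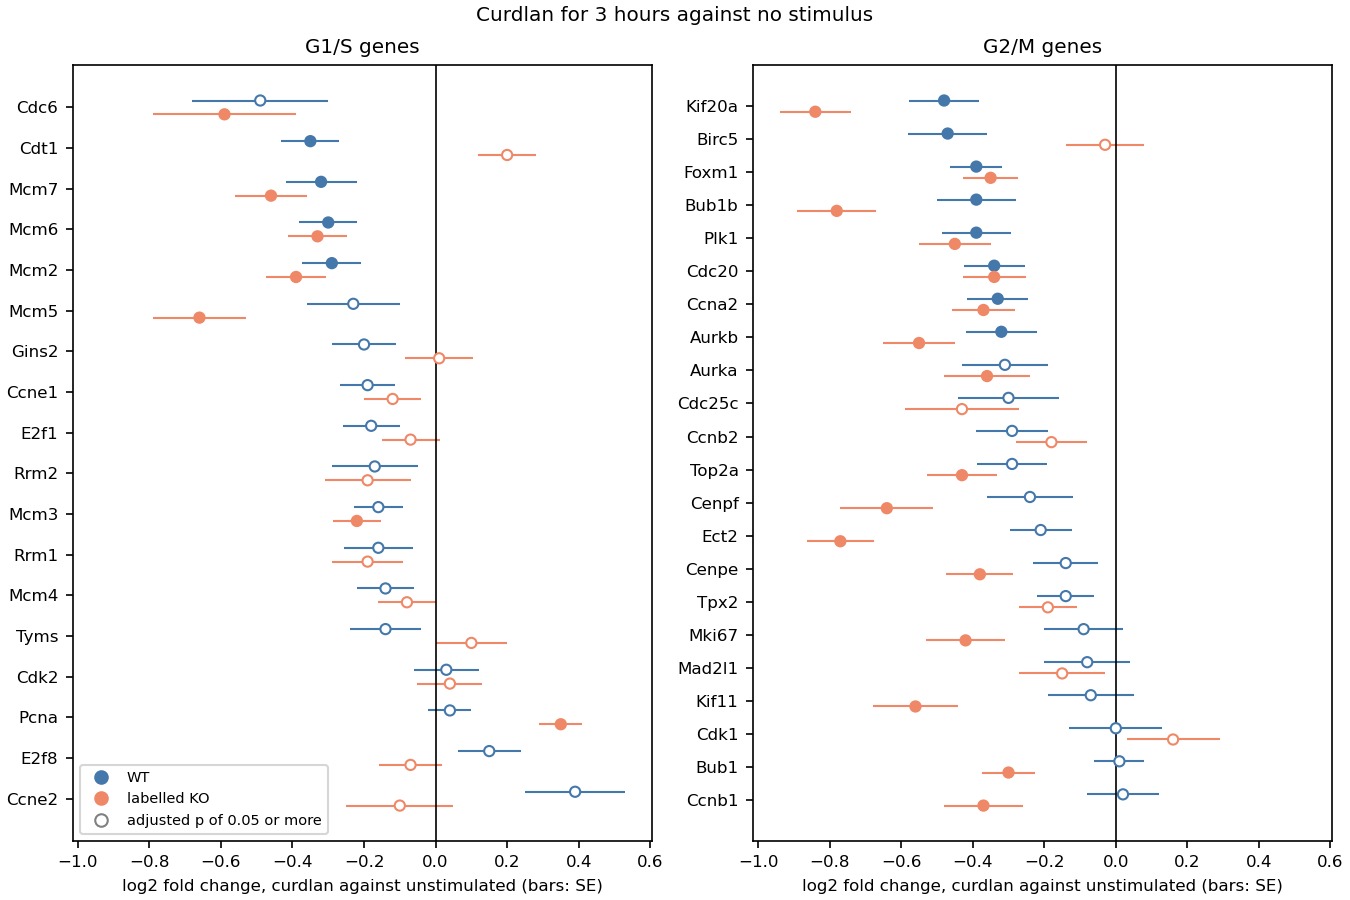
Points give the log2 fold change of curdlan against no stimulus for each gene in WT (blue) and in libraries labelled KO (orange), with bars for the standard error and open points for an adjusted p of 0.05 or more. Most points lie left of 0, and filled points are more frequent among G2/M genes (8 of 22 in WT, 16 of 22 in KO) than among G1/S genes.

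The difference between the 2 curdlan responses, KO minus WT, was tested for each gene. It passed for 2 of 40 members, 1 in each direction, against 1.61% higher and 3.6% lower among all tested genes, and 12 members had an unadjusted p under 0.05, against 25.6% of all genes. Cdt1 had a difference of 0.55 ± 0.12 (edgeR adjusted p = 0.0204), falling in WT and standing at 0.20 in KO (adjusted p = 0.0853). Ect2 had -0.56 ± 0.13 (adjusted p = 0.0265), from -0.21 in WT (adjusted p = 0.112) and -0.77 in KO. Neither call held with every library left out in turn: Cdt1 was lost without unstimulated WT 2 or 4, WT curdlan 2 or unstimulated KO 1, and Ect2 without unstimulated WT 1 or 2, WT curdlan 2 or 4, unstimulated KO 1 or 5, or KO curdlan 4. Pcna had a difference of 0.31 ± 0.085 (edgeR adjusted p = 0.0545) and did not pass. It passed with DESeq2 (0.30, adjusted p = 0.00282), upper-quartile scaling, a filter of 1 CPM in 3 libraries, or without KO curdlan 2, and in no other alternative. With the replicate block 6 members passed, Cdt1 higher and Ect2, Ccne2, Ccnb1, Bub1 and Kif11 lower. In that fit 5.58% of all tested genes were higher and 8.49% lower, so the members' share was near that of all genes.

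The balance of the classes within a library does not depend on how libraries are scaled. Reads of the 22 G2/M genes per read of the 18 G1/S genes were 1.33 to 1.46 in unstimulated WT, 1.3 to 1.39 in WT with curdlan, 1.22 to 1.31 in unstimulated KO and 0.983 to 1.05 in KO with curdlan. The 3 KO curdlan libraries were below all 9 others, and the unstimulated KO libraries touched the WT curdlan range. On the scale of mean log2 levels, in which each gene weighs the same, G2/M minus G1/S ran from -0.02 to 0.05, -0.10 to -0.04, -0.37 to -0.29 and -0.60 to -0.55, with no overlap between any groups.

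**Figure D5:**
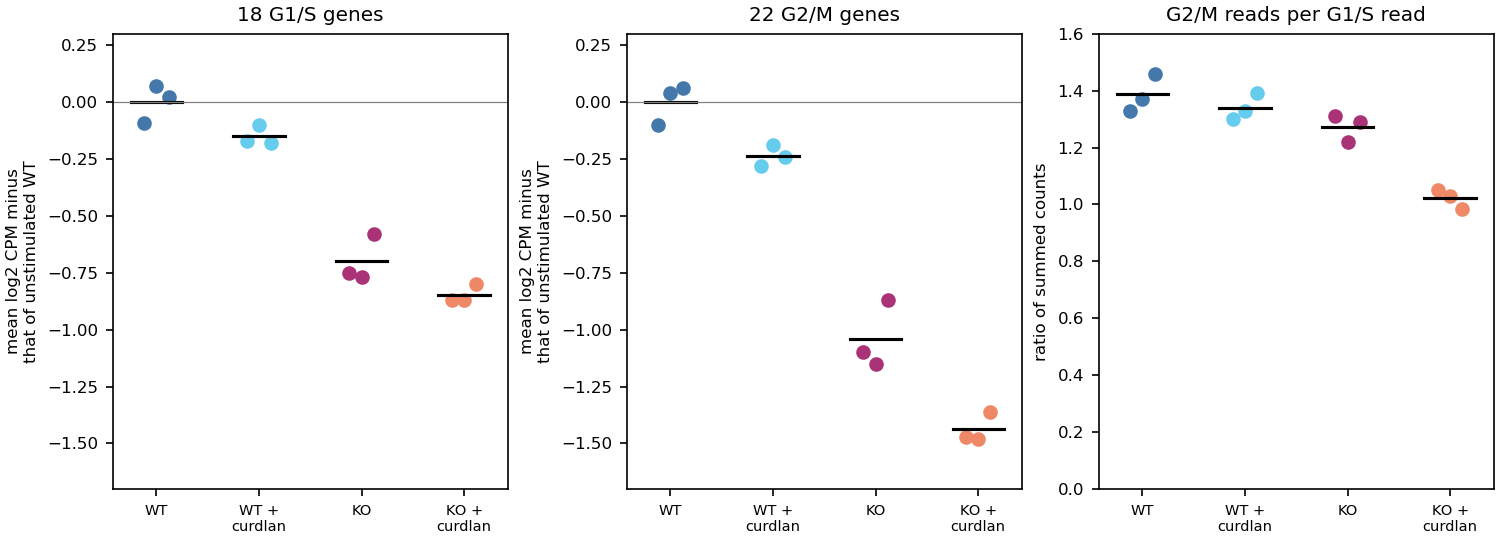
The left and middle panels give each library's mean log2 CPM over 18 G1/S and 22 G2/M genes minus the mean of unstimulated WT, and the right panel the ratio of summed G2/M to G1/S counts, with lines for group means. The G2/M class falls further, to -1.44 in KO with curdlan against -0.85 for G1/S, and the ratio is lowest there, at 0.983 to 1.05.

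In 3 of the 4 groups 1 library was the highest or the lowest for most members. Unstimulated WT library 1 was the lowest of its group for 29 of 40 members, and unstimulated KO library 5 was the highest of its group for 36. WT curdlan library 2 was the highest of its group for 25, whereas in KO with curdlan libraries 2, 4 and 5 were the highest for 12, 11 and 17. Without unstimulated KO library 5, 38 members were still lower and 1 higher in the unstimulated genotype comparison.

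Other genes of the same processes, listed by role, mostly gave the same direction. They come from the same libraries and were listed with earlier results known, so they are not independent support. Of 40 further replication genes, 37 were lower and 0 higher in unstimulated KO libraries and 33 lower and 0 higher with curdlan, led without stimulus by Lig1 (DNA ligase, -1.37), Gins1 (-1.30), Prim1 (primase, -1.26) and Uhrf1 (-1.16). Of 40 further mitotic genes, 39 were lower without stimulus, led by Cdca3 (-1.33), Cdca8 (-1.25), Nek2 (-1.15) and Ttk (-1.10), and 38 with curdlan, where Pttg1 was higher. In WT with curdlan, 8 of the replication genes were lower (20%) and 1 higher (2.5%). Fbxo5, an inhibitor of the anaphase-promoting complex, had -0.80 and Dtl, which directs Cdt1 to degradation, -0.69. In KO with curdlan, 15 were lower (37.5%) and 2 higher (5%), with Dtl at -0.95 and Clspn at -0.70. The mitotic genes gave 9 lower (22.5%) in WT, led by Kif18a (-0.50). In KO they gave 22 lower (55%) and 1 higher (2.5%), led downward by Anln (-0.60). Among all tested genes, 8.4% were lower and 11.4% higher with curdlan in WT, and 14.6% and 14% in KO. For KO against WT these shares were 23.3% and 21.1% without stimulus and 26.8% and 24.7% with curdlan.

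The genes that restrain or gate G1 were called in both directions. Of 26 such genes, 10 were higher and 4 lower in unstimulated KO libraries, and 13 higher and 7 lower with curdlan. As shares these were 38.5% higher and 15.4% lower without stimulus and 50% higher and 26.9% lower with curdlan, against 21.1% and 23.3%, and 24.7% and 26.8%, of all tested genes. Cdkn1a, which encodes p21, was counted at 666, 637 and 643 CPM in unstimulated WT, 1150, 1070 and 1130 CPM in WT with curdlan, 2000, 2140 and 1670 CPM in unstimulated KO and 2540, 2210 and 1970 CPM in KO with curdlan. The 4 groups stood in that order of means, although single KO libraries of the 2 states overlapped. It was higher in KO by 1.58 ± 0.11 without stimulus (edgeR adjusted p = 4.51e-07) and 1.00 ± 0.11 with curdlan, and it rose by 0.78 ± 0.11 with curdlan in WT (adjusted p = 0.000347). Gadd45b was higher in KO by 1.48 and 1.49, while the kinase inhibitors Cdkn2b (-1.66 and -1.67), Cdkn2c (-1.03 and -1.13) and Cdkn2a (-2.29 and -1.67, under 2 CPM in every group) were lower. With curdlan, Plk3 was higher by 2.66 in WT and 3.20 in KO, Plk2 by 2.5 and 2.05, and the antiproliferative gene Btg2 by 1.43 and 1.51. Cdkn1b, which encodes p27, fell with curdlan in KO by 0.73.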

How the data were processed

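Total RNA of 12 BMDC libraries was prepared with an unstranded kit, per the labels' protocols. The submitters' processing notes name featureCounts 1.4.6, SAMtools 1.2, TopHat2 2.4.2a, DESeq2 1.8.2 and FastQC 0.11.1. The genome build, gene models, strandedness of counting and handling of multi-mapped reads were not given in the sources used here. Raw counts per gene were deposited by the authors. They also deposited a comparison table and an interaction table with log2 fold changes, p-values and adjusted p-values, per the file headers; 18 columns of normalized values were not used.

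Of 37991 genes, 18981 passed edgeR's filterByExpr by group. Counts were scaled by TMM, and edgeR 4.0.16 (R 4.3.3, quasi-likelihood F test, two-sided) fitted all 12 libraries with 4 group means. P-values were Benjamini-Hochberg adjusted over all tested genes, with a threshold of 0.05. SE is the log2 fold change divided by the square root of F. CPM use effective library sizes, and 3 counts, taken as the detection floor, correspond to 0.0428 to 0.083 CPM. The fit was tested on simulated data. DESeq2 1.42.0, other scalings, filters and fits, and leaving out each library were tried as alternatives. Coordinates and exon overlaps come from GENCODE (GRCm38), matched by Ensembl identifier.

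The members and all lists were chosen with earlier results of these data known. Values in every library are given for up to 4 called members per class, direction and comparison with the largest change, and for Mki67, Top2a, Pcna, Mcm2, Mcm5, Ccne1, Cdk1, Ccnb1, Cdc20 and Plk1; up to 4 other genes per list (6 for G1 control) are named by size.

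Replicate numbers come from the library names. Within genotype, deviations from the group means of libraries with the same number correlated across genes in each pair (r = 0.39, 0.24 and 0.13 in WT, 0.29 and 0.56 in KO). Unmatched pairs ran from -0.29 to 0.08 in WT and from -0.47 to 0.25 in KO, where 2 numbers are shared and the pairing is less clear. Across the members alone, same-number pairs had r = 0.83, 0.61 and 0.54 in WT and 0.05 and 0.54 in KO. Unmatched pairs of members ran from -0.67 to 0.27 in WT and from -0.4 to 0.4 in KO. The numbers were taken to pair libraries only in the fits with a replicate block. The main fit did not use them, so its curdlan tests are unpaired. The authors' comparison table numbers the WT curdlan columns in another order. Replicates differed by more than counting noise (chi-square per degree of freedom 9.15 to 77.1), and none were merged.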

Additional observations from a re-analysis of the deposited data

Results flagged for a closer look

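Each of the results here stood out because the curdlan effect differed between genotypes by the test of the difference itself (KO minus WT on the log2 scale, edgeR adjusted p under 0.05). Among the members these were Cdt1 (0.55) and Ect2 (-0.56), whose values are given above.

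Among the other cell cycle genes, Pttg1, the anaphase inhibitor securin, had a difference of 1.10 ± 0.19 (edgeR adjusted p = 0.00929). It was counted at 21.4, 18.8 and 20.8 CPM in unstimulated WT, 24.4, 21 and 26.6 CPM in WT with curdlan, 16, 18.4 and 17.7 CPM in unstimulated KO and 34.3, 51.5 and 46.1 CPM in KO with curdlan. The 3 KO curdlan libraries lay above the other 9, whereas most mitotic genes were lowest there.

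Of the G1 control genes, the stress gene Gadd45g had a difference of 1.36 (edgeR adjusted p = 0.0115), falling from a mean of 24.5 to 7.53 CPM in WT and standing at 13.8 and 10.9 CPM in KO. E2f5, a repressive E2F, had 0.63 (adjusted p = 0.0451). Rbl2, the pocket protein p130 of the DREAM complex, had -0.62 (adjusted p = 0.00589), from 60.8 and 55.8 CPM in WT and 63 and 37.5 CPM in KO. Cdkn1a had -0.58 (adjusted p = 0.0491) and Plk2 -0.45 (adjusted p = 0.0482).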

How the results depend on the processing

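No member changed direction against its call under any alternative run. Scaling by library size alone moved members lower with curdlan in WT from 12 to 28, and all tested genes lower from 8.4% to 24.2%. In KO it moved members lower with curdlan from 22 to 32 (all genes from 14.6% to 32%). Members higher in KO went from 1 to 0 (all genes from 14% to 6.99%). Members with a lower difference of responses went from 1 to 2 (all genes from 3.6% to 5.87%). Members higher in KO against WT with curdlan went from 2 to 1 (all genes from 24.7% to 13%). That scaling also moved the median of all genes to -0.17, -0.20, -0.06, -0.19 and -0.24 in the 5 comparisons (the curdlan response of WT, that of KO, the difference, and the genotype comparison without and with curdlan), and the share of higher among all calls from 57.6, 49, 30.8, 47.5 and 48% to 25.1, 17.9, 15.7, 26.4 and 23.7%. Upper-quartile scaling gave shares of 46.3% for curdlan in WT and 42% for the difference. Upper-quartile scaling, DESeq2 and a filter of 1 CPM in 3 libraries each gave 2 members with a higher difference, and DESeq2 gave 2 with a lower one. DESeq2 and the fit of 2 groups alone each gave 1 member higher with curdlan in WT. The replicate block within genotype gave 25 members lower and 1 higher with curdlan in WT and 5 with a lower difference, and it moved no other count of members by over 1.5 times. Between genotypes the numbers did not mark pairs (r from -0.15 to 0.08), and a replicate block by number left 38 members lower in unstimulated KO, with Mki67 lost (adjusted p = 0.0623). Leaving out 1 library gave 4 to 11 members lower and 0 higher with curdlan in WT, 18 to 23 lower and 1 to 2 higher in KO, 0 to 1 lower and 0 to 3 higher for the difference, 37 to 39 lower and 1 higher in unstimulated KO against WT, and 36 to 37 lower and 1 to 2 higher with curdlan. Calls held in all alternatives for 4 of 12 members in WT, 14 of 23 in KO, 0 of 2 for the difference, and 38 of 40 and 37 of 39 for KO against WT. The cause of these moves was not tested.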

Other observations

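The authors' deposited table named an interaction does not hold the difference of the 2 curdlan responses for these genes. Across the 40 members its log2 fold changes differed by a median of 0.01 from KO against WT without stimulus as fitted here, and by a median of 0.86 from the difference of responses. That deposited table lists 39 members lower and 1 higher at its adjusted p, whereas the test of the difference passed for 2 members.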
